A study of Mus musculus with 2 samples.

Results

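The 10 microRNA genes from Mir379 to Mir679 are the first hairpins of the Mir379 to Mir410 polycistron, a run of microRNA genes in the imprinted Dlk1-Dio3 region of mouse chromosome 12. They were taken by symbol, as the first hairpins in order along the chromosome, and are 10 of the 2202 microRNA genes counted. Small RNA was sequenced from left cerebral cortex of male mice aged 14 days of the strain B6CASTF1/J, a first-generation cross between C57BL/6 and CAST/Ei mice. All samples formed 1 group of 2 biological replicate libraries, so no conditions were compared. The sample descriptions read "3x Males", with no statement on pooling, and both libraries carried the same donor label. It is therefore not stated that they came from separate animals, and every SD and p-value below measures differences between these samples only, which may be technical.

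In eutherian mammals these hairpins are cut from long non-coding transcripts of the maternal chromosome, and the paternal copy is silent. A hairpin has a 5p and a 3p arm, and either arm can become a mature microRNA, which pairs with messenger RNAs mainly through its seed, bases 2 to 8. The polycistron is known for its expression in neurons. In rat neurons activity raises its transcription through the factor Mef2, and several of its microRNAs are needed for activity-dependent growth of dendrites. Mice that lack the whole polycistron show altered metabolism after birth and altered anxiety-related and social behaviour.

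The 10 hairpins lay on the plus strand of chromosome 12 between 109709060 and 109715650 (mm10, positions from GENCODE M21), a span of 6591 bases. None lay inside a longer annotated gene on that strand. The gene Mirg, whose name is often given to the polycistron, was annotated from 109729764 to 109749460 and began 14113 bases after the end of Mir679. The nearest long non-coding gene upstream, B830012L14Rik, ended 6472 bases before Mir379. The hairpins were 61 to 120 bases long, and the gaps between them ran from 71 bases (Mir1197 to Mir323) to 1740 bases (Mir329 to Mir494), with a median of 453.

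All 10 genes had mature sequences in RefSeq (GRCm38.p6), 20 forms in all with 18 different seeds. The forms that share a seed or part of it are shown with the seed in capitals, followed by the 5p forms of the leading hairpins and the 3p form of Mir323.
miR-379-3p: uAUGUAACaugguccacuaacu
miR-411-3p: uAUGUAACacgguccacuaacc
miR-758-5p: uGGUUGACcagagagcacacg
miR-1197-5p: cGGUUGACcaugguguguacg
miR-380-5p: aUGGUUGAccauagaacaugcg
miR-379-5p: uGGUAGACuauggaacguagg
miR-411-5p: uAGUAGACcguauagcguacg
miR-323-3p: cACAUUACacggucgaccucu

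The 3p forms of Mir379 and Mir411 had the same seed and matched at 20 of 22 positions. The substitutions from miR-379-3p to miR-411-3p were U10C and U22C, counted from the 5′ end. The 5p forms of the same hairpins matched at 14 of 21 positions, and the first substitution, G2A, falls in the seed. The 5p forms of Mir758 and Mir1197 also had a common seed. The same letters, GGUUGAC, began at base 3 of miR-380-5p, where they are shifted by 1 base against the seed. On the strand of the mature form this motif was present in 0.288% of all 1738 mature forms in the table, 5 in number, of which these were 3. The motif was taken from the seed that miR-758-5p and miR-1197-5p share, so the number among the 10 hairpins was partly fixed by that choice. Outside the 10 hairpins, 6 mature forms in the table had the seed of one of theirs. Among these, Mir362 on chromosome X, with the seed of miR-329-3p, stood at 38.5 ± 6.29 CPM (SD, n = 2). Mir1193, which lies next to Mir679 and has the seed of miR-379-5p, stood at 59.6 ± 4.08 CPM, and Mir410, with the seed of miR-494-5p, at 181 ± 27.1 CPM. Mir7229, Mir7221 and Mir299b, with seeds of miR-411-5p, miR-679-5p and miR-299a-3p, had 0 counts in both libraries. For Mir299b this sets no limit, as described further on. All these levels are of whole hairpin genes, both arms together, and not of the form that has the seed.

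The deposited values are raw read counts per hairpin gene, and the 5p and 3p arms are not separated in them. CPM here means counts per 1000000 counts in microRNA genes, which summed to 4111167 in replicate 1 and 3189903 in replicate 2. Detection required 10 counts or more in both libraries. Each read comes from a short mature form, so counts were not divided by length, and ratios between hairpins are also given per base of hairpin. Reads that matched several genomic positions were given to no gene. In replicate 1 they were 39.1% of all reads, and in replicate 2 they were 41.4%. As a check of the tissue label, the neuron-associated markers held 4.81% and 5.61% of the counts in replicates 1 and 2. The endothelial marker Mir126a held 1.04% and 1.32%, the oligodendrocyte markers 0.286% and 0.253%, and the microglia and leukocyte markers 0.109% and 0.126%. Of the 9 neuron-associated markers 6 were detected, and the other 3 were the copies of Mir124a, whose shared reads were given to no gene. The copies of Mir128, Mir138 and Mir219a, and Mir146, Mir302a and Mir302b, also share stretches with other microRNA genes. Mir126a shares none with a microRNA gene that does not overlap it, and overlapping genes were not searched for these markers. The shares of the lists can thus be too low to unlike degrees. Among the muscle markers Mir206, which has no copy, stood at 20.7 and 23.8 CPM. The other 4, Mir1a-1, Mir1a-2, Mir133a-1 and Mir133a-2, were at 0, but they share stretches with their copies, so their 0 says nothing of muscle. The liver marker Mir122 held 0.00518% and 0.00480%. The markers of photoreceptors and hair cells held 0.00192% and 0.00138%, and those of pluripotent cells 0.000608% and 0.000188%, with Mir290a at 0 in both libraries. In tissue, fewer cells of a type and less RNA per cell cannot be told apart.

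Together the 10 hairpins held 1.79% ± 0.257 of all counts (SD, n = 2). This was 66032 counts, or 1.61%, in replicate 1 (exact Clopper-Pearson 95% interval 1.59 to 1.62%), and 62818 counts, or 1.97%, in replicate 2 (1.95 to 1.98%). The intervals do not overlap. They cover counting error only, since the counts are of reads, and several reads can be copies of 1 molecule. All 10 had counts in both libraries and 9 were detected, the exception being Mir1197. Of all 2202 genes, 406 were detected. The median mean level of all 10, Mir1197 included, was 335 CPM, against 0 CPM over all genes, most of which were not detected. Over the detected genes the median was 129 CPM, and the middle one of the 9 detected hairpins, Mir380, stood at 457 CPM. Counts were concentrated in Mir411, Mir379 and Mir323, which made up 92.2% ± 0.352 of the counts of the 10.

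**Figure D1:**
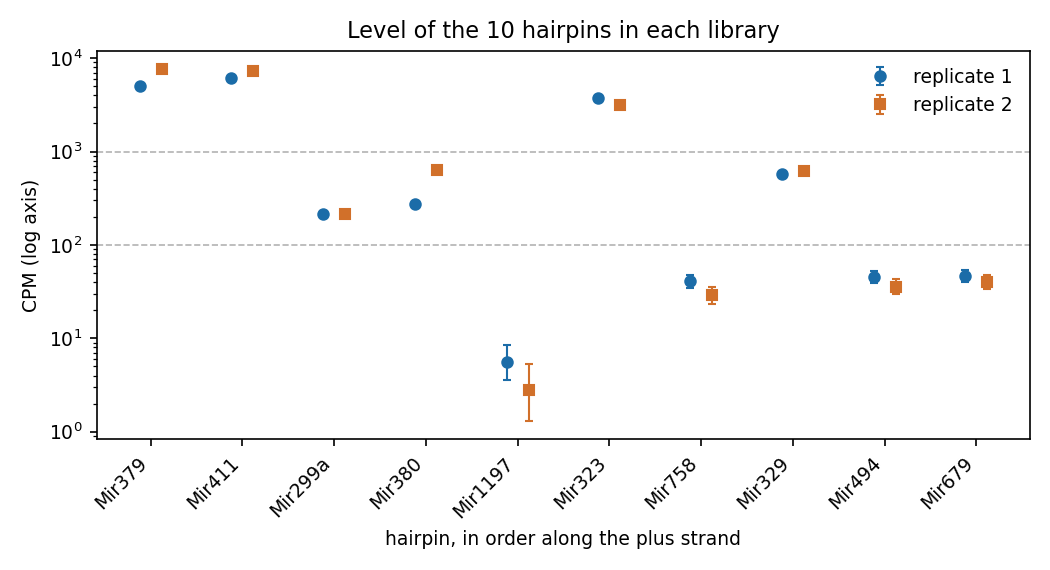
CPM on a log axis of each of the 10 hairpins, in their order along the chromosome, in replicate 1 (circles) and replicate 2 (squares), with exact 95% intervals of the counts and dashed lines at 100 and 1000 CPM. Mir379, Mir411 and Mir323 lie above 1000 CPM in both libraries, 4 hairpins lie below 100 CPM, and Mir1197 is lowest.

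Mir411 (ENSMUSG00000065477.3, 109710175 to 109710256) was the most abundant of the 10, with 24981 counts (6076 CPM) in replicate 1 and 23291 counts (7301 CPM) in replicate 2. Its mean of 6689 ± 866 CPM (SD, n = 2) placed it 31st of the 2202 genes, and it held 37.5% ± 0.534 of the counts of the 10. Reads with several matches were not counted, so genes with copies can stand too low in any ranking over all genes. Mir379 (ENSMUSG00000065498.4, 109709060 to 109709125), whose microRNA is known in mouse liver as a glucocorticoid-responsive regulator of blood lipids, had 20528 counts (4993 CPM) in replicate 1 and 24474 counts (7672 CPM) in replicate 2. Its mean was 6333 ± 1894 CPM. The ranges of Mir411 and Mir379 over the libraries overlapped, with Mir411 the higher in replicate 1 and Mir379 in replicate 2. Per base of hairpin Mir379 was the higher in both libraries, by 1.02 and 1.31 times. In human brain the primary transcripts of both are known to be edited by adenosine deaminases; edited and unedited reads are not separated in these counts.

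Mir323 (ENSMUSG00000065617.1, 109712508 to 109712593) had 15560 counts (3785 CPM) in replicate 1 and 10019 counts (3141 CPM) in replicate 2, a mean of 3463 ± 455 CPM and 53rd place among all genes. It lay below Mir379 and Mir411 in both libraries. Within a library Mir411 had 1.61 and 2.32 times the counts of Mir323 in replicates 1 and 2, or 1.68 and 2.44 times per base.

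Mir329, Mir380 and Mir299a formed an intermediate range. Mir329 (ENSMUSG00000065577.1, 109713481 to 109713577), whose microRNA is among those needed for activity-dependent growth of dendrites in rat hippocampal neurons, had 2375 and 1980 counts in replicates 1 and 2, or 578 and 621 CPM. Mir380 (ENSMUSG00000104582.1, 109711803 to 109711863), whose 5p form represses the tumour suppressor p53 in mouse embryonic stem cells and human neuroblastoma cells, had 1132 and 2035 counts, or 275 and 638 CPM. Its mean was 457 ± 256 CPM, the widest spread relative to the mean among the 10, at 56.1% of it. The range of Mir380 contained that of Mir329, so these neighbours did not differ beyond their spread. Mir299a (ENSMUSG00000106653.1, 109710638 to 109710700) had 887 and 676 counts, or 216 and 212 CPM, the narrowest relative spread of the 10 at 1.27% of the mean. Mir299a lay below Mir380 in both libraries, by 1.28 times in replicate 1 and 3.01 times in replicate 2.

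The remaining 4 lay under 100 CPM. Mir679 (ENSMUSG00000076145.1, 109715577 to 109715650) had 193 and 128 counts in replicates 1 and 2, or 46.9 and 40.1 CPM. Mir494 (ENSMUSG00000070141.2, 109715318 to 109715402) had 186 and 114 counts, or 45.2 and 35.7 CPM. Mir758 (ENSMUSG00000076459.1, 109712810 to 109712890), whose 3p form represses the cholesterol exporter ABCA1 in human and mouse cells, had 167 and 92 counts, or 40.6 and 28.8 CPM. The ranges of Mir679 and Mir494 overlapped, and so did those of Mir494 and Mir758. Mir1197 (ENSMUSG00000080687.1, 109712317 to 109712436) had 23 counts in replicate 1, or 5.59 CPM (95% interval 3.55 to 8.39), and 9 counts in replicate 2, or 2.82 CPM (1.29 to 5.36). The order of the 10 by mean level was thus Mir411, Mir379, Mir323, Mir329, Mir380, Mir299a, Mir679, Mir494, Mir758 and Mir1197. Of its 9 pairs of neighbours 5 did not overlap in their ranges. The mean level of Mir411 was 1590 times that of Mir1197, which fell short of the detection rule. Among the detected hairpins the highest mean was 193 times the lowest.

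Hairpins close together on the chromosome could stand far apart in level. Mir1197 ended 71 bases before Mir323, and Mir323 had 677 and 1113 times its counts in replicates 1 and 2 (944 and 1553 times per base), with only 9 counts of Mir1197 in replicate 2. Mir758, which starts 216 bases after Mir323, had counts lower than those of Mir323 by 93.2 and 109 times (87.8 and 103 times per base). Other close hairpins stood near each other in level. Mir494 had 0.964 and 0.891 times the counts of Mir679, which starts 174 bases after it (0.839 and 0.775 times per base).

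**Figure D2:**
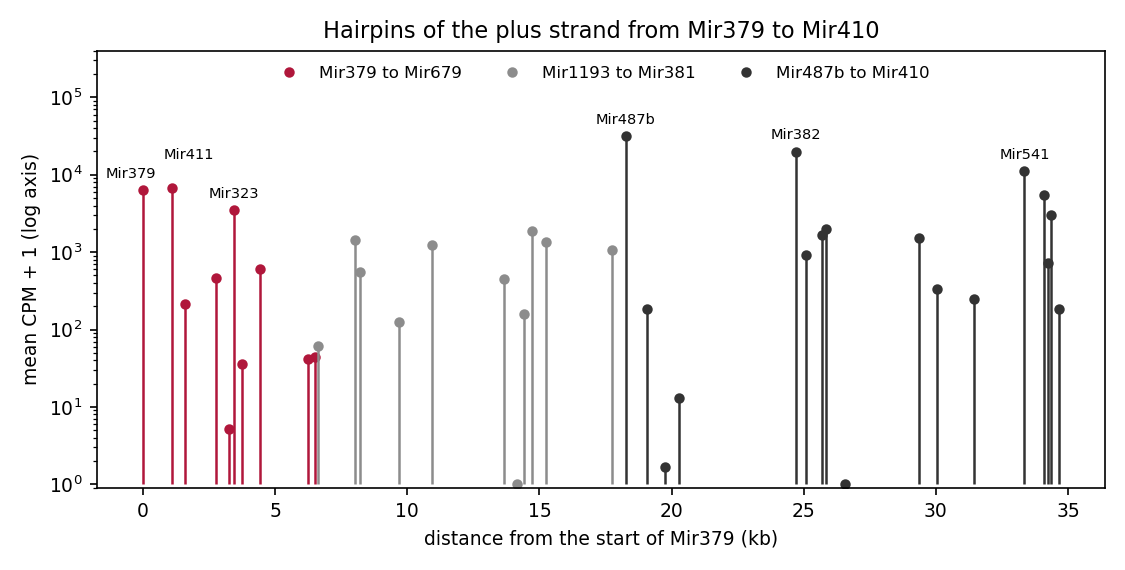
Mean CPM + 1 over the 2 libraries, on a log axis, of each plus-strand hairpin from Mir379 to Mir410 by distance from the start of Mir379 in kb, with the 10 hairpins in red and the other stretches of the polycistron in grey and black. Mir379, Mir411 and Mir323 stand above every hairpin of the grey stretch, and Mir487b, Mir382 and Mir541 of the black stretch stand above all of the 10.

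Hairpins of similar sequence could also stand far apart in level. Over the 45 pairs of the 10, global alignment gave identities of 37.5 to 73.8% with a median of 51.4%. Gaps count as aligned columns, so unlike annotated lengths (61 to 120 bases) lower the identity. The identity of unrelated hairpins was not computed. The most alike were Mir411 and Mir758 (73.8%), Mir323 and Mir494 (71.9%), and Mir379 and Mir380 (71.2%). Within a library Mir411 had 150 and 253 times the counts of Mir758 in replicates 1 and 2 (148 and 250 times per base). Mir323 had 83.7 and 87.9 times the counts of Mir494 (82.7 and 86.9 times per base), and Mir379 had 18.1 and 12.0 times those of Mir380 (16.8 and 11.1 times per base). Next in identity, Mir411 and Mir323 (66.7%) differed by only 0.95 in log2 mean CPM. Mir329 and Mir494 (64.7%) differed by 3.89, and Mir299a and Mir380 (63.2%) by 1.09. The pair with the closest mean levels, Mir379 and Mir411, had an identity of 61.6%. Whether identity and level go together over the 45 pairs was not tested.

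**Figure D3:**
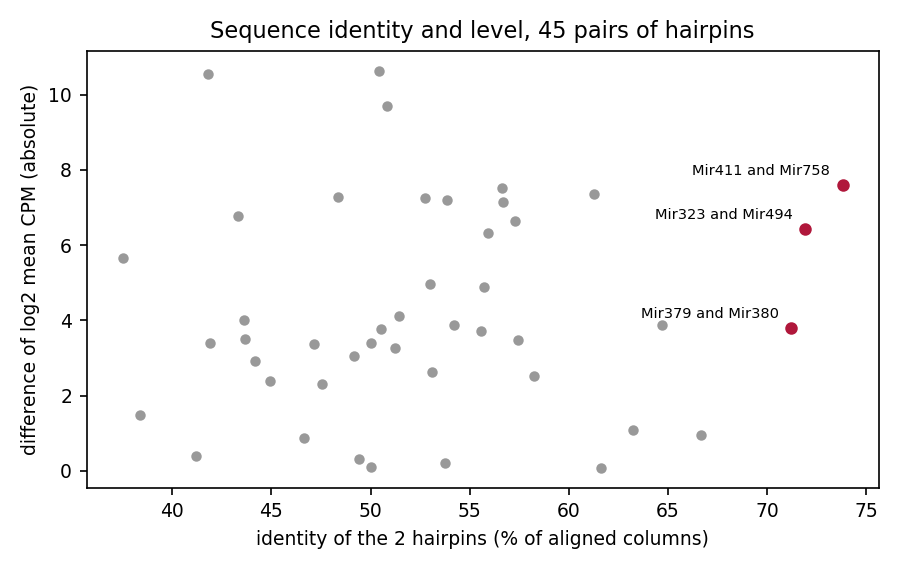
Absolute difference of log2 mean CPM against the identity of the hairpins for the 45 pairs of the 10 hairpins. Identity is in percent of aligned columns, gaps included, and the 3 most alike pairs are in red. These 3 pairs, at identities of 71.2% to 73.8%, differ by 3.79 (Mir379 and Mir380) to 7.59 (Mir411 and Mir758) on the log2 scale.

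Since reads with several matches were not counted, the sequences were searched for copies. None of the 20 mature forms was found in full in another microRNA hairpin of RefSeq, nor, on either strand, in a GENCODE M21 transcript outside its own locus; the rest of the genome was not searched. Mir411 and Mir758 shared a stretch of 18 bases or more with each other, and Mir299a shared such stretches with the gene on its opposite strand, described further on. Apart from the overlap of Mir380 with the gene opposite it, the other 7 shared none with another microRNA gene. The shared stretch of 21 bases, in capitals here, covers the end of the 3p form and the bases after it.
Mir411: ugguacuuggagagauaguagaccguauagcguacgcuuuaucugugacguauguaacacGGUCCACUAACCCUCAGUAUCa
Mir758: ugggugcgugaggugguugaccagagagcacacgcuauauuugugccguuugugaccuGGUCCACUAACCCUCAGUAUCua

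Of this stretch 12 bases fell in the 22 bases of miR-411-3p and 9 in the 19 bases of miR-758-3p, so a read of either full mature form differs between them. Without both genes the other 8 held 1.12% of the remaining counts.

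Mir299a and Mir380 have a microRNA gene annotated on the opposite strand, and all counts there lay on the strand of Mir299a and Mir380. The gene opposite Mir380, Gm25750 (112 bases), had 0 counts in both libraries. An approximate upper limit of 3 counts was set for a count of 0. This is 0.730 CPM at the depth of replicate 1 and 0.940 CPM at that of replicate 2. The gene opposite Mir299a, Mir299b (49 bases), had 0 counts too, but this sets no limit. In the predicted fold of Mir299a 85.7% of the bases are paired. The span of Mir299b on the opposite strand is in capitals.
Mir299a: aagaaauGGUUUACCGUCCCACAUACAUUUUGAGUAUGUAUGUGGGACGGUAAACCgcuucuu

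Both mature forms of Mir299b are contained in those of Mir299a, so a read of either form of Mir299b matches both strands of the locus. The same holds for a read of Mir299a that is shortened to the common part, so the count of Mir299a can be too low. When strand was ignored, Mir299a and Mir380 had 0 counts in both libraries, since a read there then lies in 2 genes and is counted as ambiguous. The 8 hairpins with no gene on the opposite strand had 0 counts there in both libraries.

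The 2 libraries were compared gene by gene with a two-sided exact binomial test of the split of counts, with Benjamini-Hochberg adjustment over the 406 detected genes. This compares reads of 2 libraries and no conditions, and it makes no allowance for spread between libraries. Of the 9 hairpins tested 6 differed, where 58.1% of all detected genes did. Lower in replicate 1 were 4 of the 9, against 23.4% of the detected genes, and higher in replicate 1 were 2 of the 9, against 34.7%. The median log2 ratio of CPM, replicate 1 over replicate 2, was 0.03 over the 9 and 0.08 over all detected genes. The median absolute ratio was 0.27 over the 9 and 0.30 over all.

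Mir380 differed most, with a log2 ratio of -1.21 (adjusted p = 1.51e-118, exact binomial test). Mir379 was next in size at -0.62, with a p below the smallest number the program holds. Mir411 was also lower in replicate 1, at -0.26 (adjusted p = 3.51e-89, exact binomial test). Mir329 was lower in replicate 1 by a small margin, at -0.10 (adjusted p = 0.0328, exact binomial test). Mir323 was higher in replicate 1, at 0.27 (adjusted p = 8.71e-48, exact binomial test), and so was Mir758, at 0.49 (adjusted p = 0.0159, exact binomial test). Mir299a (0.03), Mir494 (0.34) and Mir679 (0.23) did not pass the test. With TMM or DESeq2 library sizes, which move every ratio down by 0.08, Mir758 no longer passed (adjusted p = 0.0506 and 0.0507, exact binomial test), Mir299a turned to -0.05 and -0.06, and the other calls held. The split over all detected genes moved from 141 higher and 95 lower in replicate 1 to 110 and 111 with TMM. The ratio of 2 hairpins could differ between the libraries: Mir379 had 1.32 times the counts of Mir323 in replicate 1 and 2.44 times in replicate 2.

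**Figure D4:**
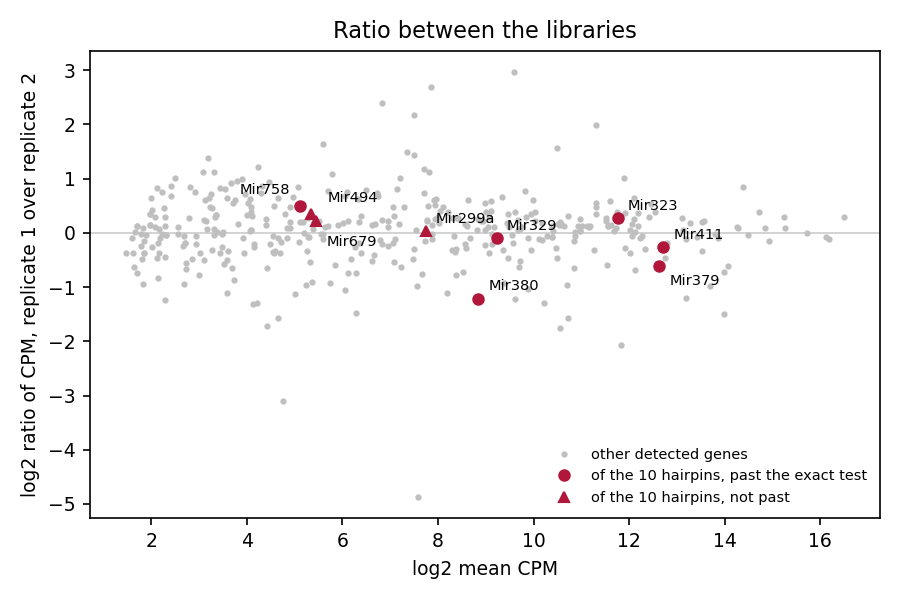
Log2 ratio of CPM, replicate 1 over replicate 2, against log2 mean CPM for the 406 detected genes, with the 9 detected hairpins in red (circles past the exact binomial test, triangles not past). Mir380, at -1.21, lies farthest from 0 among the 9.

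Set beside the rest of the polycistron, the 10 hairpins were 10 of 38 plus-strand genes (26.3%) and held 17.1% ± 1.97 of its counts (SD, n = 2), 15.7% in replicate 1 and 18.5% in replicate 2. The 11 genes that follow, from Mir1193 to Mir381, held 7.97% ± 0.507, led by Mir376a at 1877 ± 55.1 CPM. The 17 genes from Mir487b to Mir410 held 74.9% ± 1.46, led by Mir487b at 31244 ± 2225 CPM. The share of the 10 lay above that of the next stretch in both libraries, while their median gene was lower: 246 and 416 CPM in replicates 1 and 2, against 520 and 599 CPM there and 1010 and 821 CPM in the last stretch. These stretches differ in their number of genes, and the differences between them were not tested. Upstream of Mir379, from Mir770 to Mir882, 19 plus-strand genes held 11.5% ± 0.937 of all counts, with the highest mean for Mir127 at 39262 ± 1857 CPM. Mir770, at 39018 ± 5557 CPM, had a range that contained that of Mir127. Between Mir379 and Mir679 the annotation had 12 microRNA genes, the 10 and the pair on the opposite strand.

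Among genes outside the 10, those nearest to Mir411 by distance of log2 CPM in the 2 libraries were Mir342 within Evl (5821 and 7986 CPM in replicates 1 and 2; distance 0.14), Mir151 within Ptk2 (6692 and 7597 CPM; distance 0.15) and Mir128-2 within Arpp21 (4662 and 5707 CPM; distance 0.52). Nearest to Mir380, the fifth of the 10 by level, were Mir29c (279 and 461 CPM; distance 0.47), Mir34c (247 and 423 CPM; distance 0.61) and Mir125b-2 (349 and 422 CPM; distance 0.69). Mir128-2, Mir29c and Mir125b-2 share a stretch of 18 bases with another microRNA gene, so their counts can be too low. With 2 libraries these distances describe level and the ratio of 2 values only.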

How the data were processed

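The authors deposited 1 file per library of whole-number counts for each microRNA gene, not normalized, given with strand ignored, on the strand of the gene and on the opposite strand. Per the descriptions deposited beside them the assembly is mm10 and the annotation GENCODE M21; for the aligner and the counter: not given in the sources used here. All 2202 gene IDs matched GENCODE M21. Same-strand counts were divided by their sum per library to give CPM. Rows that name no gene were left out: of all reads, 39.1% and 41.4% had several matches, 19.1% and 17.5% were unmapped and 5.13% and 4.66% lay in no gene, in replicates 1 and 2. Depth was 11224232 and 8758378 reads.

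Genes with at least 10 counts in each library were tested with a two-sided exact binomial test (scipy 1.17.1) over the whole table, with Benjamini-Hochberg adjustment and a threshold of 0.05. Sign flips over 2 libraries cannot give a two-sided exact p below 0.5, so no test over samples was made. The test was checked on simulated counts of the 406 detected genes for the comparison of the libraries. It called 87 of 94 genes given a log2 ratio of 1 in size, 105 of 106 given 2, and 8 of 206 left unchanged. The simulated counts were drawn with counting error only (Poisson), the model of the test itself. This check therefore cannot show how the test behaves where libraries differ beyond counting error. TMM (edgeR 4.0.16) and DESeq2 (1.42.0) gave other library sizes. Hairpins were aligned globally with Biopython 1.88 and folded with RNAfold 2.7.2, and mature sequences came from RefSeq. The naming rule took all 10 hairpins, other genes between them, the 3 genes nearest in level to the first and the fifth, genes that share a seed, and the leading gene of each other stretch. The members, lists and rules were chosen with earlier results of these data known.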

Additional observations from a re-analysis of the deposited data

How the results depend on the processing

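Alternatives that kept both libraries gave 30 values, of which 17 stayed within tolerance (1 SD for shares, 1.5 times for counts) and 13 did not. With strand ignored the leading member held 38.9% of the counts of the 10, and 4 of the 10 kept their place in the order of levels, since Mir299a and Mir380 then had no counts. Per base of hairpin 6 kept their place. Without the most abundant member the rest held 1.13% of the remaining counts and 11.4% of those of the polycistron, and Mir379 led them with 56.0%. Without Mir411 and Mir758, which share a stretch, these values were 1.12%, 11.4% and 56.1%. Without Mir299a as well, an alternative chosen after seeing the data, they were 1.10%, 11.2% and 57.2%. With all reads of the library as the total the share was 0.653%. With 1 library left out, 6 to 10 hairpins kept their place; the test between the libraries then has no value. Shares without a library cannot move by more than their SD. Shares without Mir411, or with all reads as the total, change by construction. The tally of values that stayed or moved is therefore no measure of stability. Depth limits Mir1197 most, at 9 counts in replicate 2.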

Other observations

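The 10 hairpins had a GC content of 35.3% (Mir494) to 52.3% (Mir323) and a predicted minimum free energy of folding of -27.1 (Mir379) to -42.1 kcal/mol (Mir299a). The predicted fold paired 63.3% (Mir1197) to 85.7% (Mir299a) of the bases, and 10 to 16 bases separated the mature forms of the arms. Per base, the energy was -0.363 for Mir411 and -0.411 kcal/mol for Mir379, in a range from -0.309 (Mir1197) to -0.668 (Mir299a). Mir299a, with the strongest predicted fold on both measures, stood at 214 ± 2.71 CPM (SD, n = 2). As described for its shortened reads, this level can be too low, also in the comparison with level that follows. Across the 10 hairpins Spearman's rho of mean CPM with GC content was -0.14, with energy per base -0.07, with the paired share -0.12 and with position along the chromosome -0.54, given as a description over hairpins of the same libraries.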
